A study of Mus musculus with 12 samples.

Results

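The genes described here are 10 genes of intestinal T cells, named Cd3e, Cd3g, Cd4, Cd8a, Cd8b1, Trdc, Gzma, Gzmb, Itgae and Ccl5. They were chosen by name, by matching the Ensembl identifiers of the expected-count table to these symbols in the mouse GENCODE M21 annotation, and they are 10 of 53715 gene lines and 10 of the 16558 genes that passed the filter on low counts. The libraries hold RNA of the mucosa of ileum and colon of male C57BL/6J mice aged 8 weeks. Slc39a8-IEC KO mice carry floxed Slc39a8 alleles and a Villin-Cre transgene, whose promoter is active in intestinal epithelial cells and not in T cells, and the labels give the control mice as Slc39a8-fl/fl, while the methods of the study describe controls of floxed, wild-type and Vil-Cre genotype together. Each of the 4 groups (ileum control, ileum KO, colon control and colon KO) had 3 mice, and the labels do not say whether an ileal and a colonic library came from the same mouse. Slc39a8 encodes a metal transporter that carries manganese into cells, and the study asked what its loss in epithelium does to the intestine.

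The intestinal epithelium holds many T cells between its epithelial cells, the intraepithelial lymphocytes, and the lamina propria beneath holds further T cells. Cd3e and Cd3g encode chains of the CD3 complex that signals for every T cell receptor. Cd4, Cd8a and Cd8b1 encode coreceptors, and many intraepithelial lymphocytes carry CD8 as a pair of alpha chains without the beta chain. Trdc is the constant region of the delta chain of the gamma-delta receptor. Gzma and Gzmb encode granzymes, the proteases of cytotoxic granules, Itgae encodes the integrin alpha chain CD103 that binds E-cadherin on epithelial cells, and Ccl5 encodes a chemokine made by activated and cytotoxic T cells.

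Sequence upstream of the annotated start was matched by symbol in RefSeq (GRCm38.p6, the build mm10 of the files) for 5 of the 10 genes, Cd3e, Cd3g, Cd8a, Gzma and Gzmb. The 250 bases before the start of Gzma and Gzmb are shown because these genes had, in control mice, the highest ileal levels per length and the largest tissue differences among the genes called, and those of Cd3e because the other genes are set against it below. Capitals mark the motifs searched on both strands, RUNX (TGTGGT), ETS (AGGAAG), E-box (CAGCTG) and T-box (GGTGTG), all of which name factors known from T cells.
Gzma, chr13:113100982-113101231, minus strand: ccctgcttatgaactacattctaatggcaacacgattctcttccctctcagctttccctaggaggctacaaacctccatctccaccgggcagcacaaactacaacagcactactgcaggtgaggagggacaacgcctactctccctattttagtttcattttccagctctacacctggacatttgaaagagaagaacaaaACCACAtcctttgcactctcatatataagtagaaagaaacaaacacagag
Gzmb, chr14:56262335-56262584, minus strand: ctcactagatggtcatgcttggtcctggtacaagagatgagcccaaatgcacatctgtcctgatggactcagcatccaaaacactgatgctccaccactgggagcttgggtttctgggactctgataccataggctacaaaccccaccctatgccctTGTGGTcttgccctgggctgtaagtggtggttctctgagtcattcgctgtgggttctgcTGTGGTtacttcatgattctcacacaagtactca
Cd3e, chr9:45009612-45009861, minus strand: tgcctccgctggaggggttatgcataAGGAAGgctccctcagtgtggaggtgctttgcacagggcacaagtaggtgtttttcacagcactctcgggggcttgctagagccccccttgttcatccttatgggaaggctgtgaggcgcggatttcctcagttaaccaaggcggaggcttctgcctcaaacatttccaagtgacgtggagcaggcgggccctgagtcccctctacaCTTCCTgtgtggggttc
The RUNX letters stood 50 bases before the start of Gzma and 93 and 34 bases before that of Gzmb, and they were in 2 of the 5 matched genes and in 14.0% of 32851 promoter windows of this length. These distances are from the RefSeq start, and the GENCODE start lies 74 bases further downstream for Gzmb and 16 bases upstream for Cd3e. The ETS letters stood 224 and 17 bases before the start of Cd3e and were in 1 of the 5 genes and in 29.5% of windows. The E-box and T-box letters were in 0 of the 5 genes and in 13.0% and 16.3% of windows. A match of letters is a description and says nothing of binding.

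Values are CPM, read counts scaled to the TMM-adjusted library total, and a level per kb is CPM divided by the exon length of the gene in kb. Library totals were 16749138 to 27903083 expected counts. Slc39a8 was at 5.22 to 8.39 CPM in ileum control and 2.62 to 4.35 in ileum KO, and at 20.1 to 20.8 in colon control and 7.35 to 11.5 in colon KO, with no overlap in either tissue. Fabp6, an ileal bile acid binding protein, was at 3362 to 7110 CPM in ileum and 5.76 to 26.8 in colon. Car1, a carbonic anhydrase of colonic epithelium, was at 14884 or more in every colonic library and at 144 or less in ileum, except for 2632 CPM in ileum KO replicate 2. Ptprc, the pan-leukocyte gene that encodes CD45, was at 34.2 to 45.9 CPM in ileum and 11.5 to 21.0 in colon.

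A pair of ileal libraries, control replicate 3 and KO replicate 1, stood apart. Their summed CPM of 6 smooth muscle genes was 34.2 and 20.2, against 1814 to 2643 in the other 4 ileal libraries and 2536 to 3954 in colon. Their summed CPM of 6 B cell genes was 48.7 and 60.2, against 3.79 to 8.28 in the other 4. Each genotype has 1 of these libraries, and the calls between tissues, the levels per kb of the leading genes and the correlations below are given with and without them.

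Per kb, in ileum control, Gzma had the highest level at 137 ± 96.0 CPM per kb (SD, n = 3). Gzmb followed at 39.0 ± 30.6 and Ccl5 at 32.0 ± 22.5, and the spreads of these 3 genes overlapped. The other 7 genes lay between 0.581 (Cd4) and 3.79 (Cd8a) CPM per kb, with Cd3g at 3.43, Itgae at 2.73, Cd3e at 1.36, Cd8b1 at 1.15 and Trdc at 1.03, and neighbours among these 7 overlapped in mean ± SD. In colon control Gzma, Ccl5 and Gzmb led as well, Gzma at 20.9 ± 13.2, Ccl5 at 6.96 ± 4.48 and Gzmb at 5.31 ± 2.62 CPM per kb. In KO mice too the order below Gzma was Ccl5 (38.4 ± 20.9 in ileum, 6.87 ± 4.81 in colon) and then Gzmb (34.9 ± 23.0 and 6.29 ± 2.86), with overlapping spreads. Without the ileal pair the means of 2 libraries were 192 for Gzma, 55.2 for Gzmb and 43.0 for Ccl5 in ileum control, and 174, 46.2 and 48.7 in ileum KO.

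**Figure D1:**
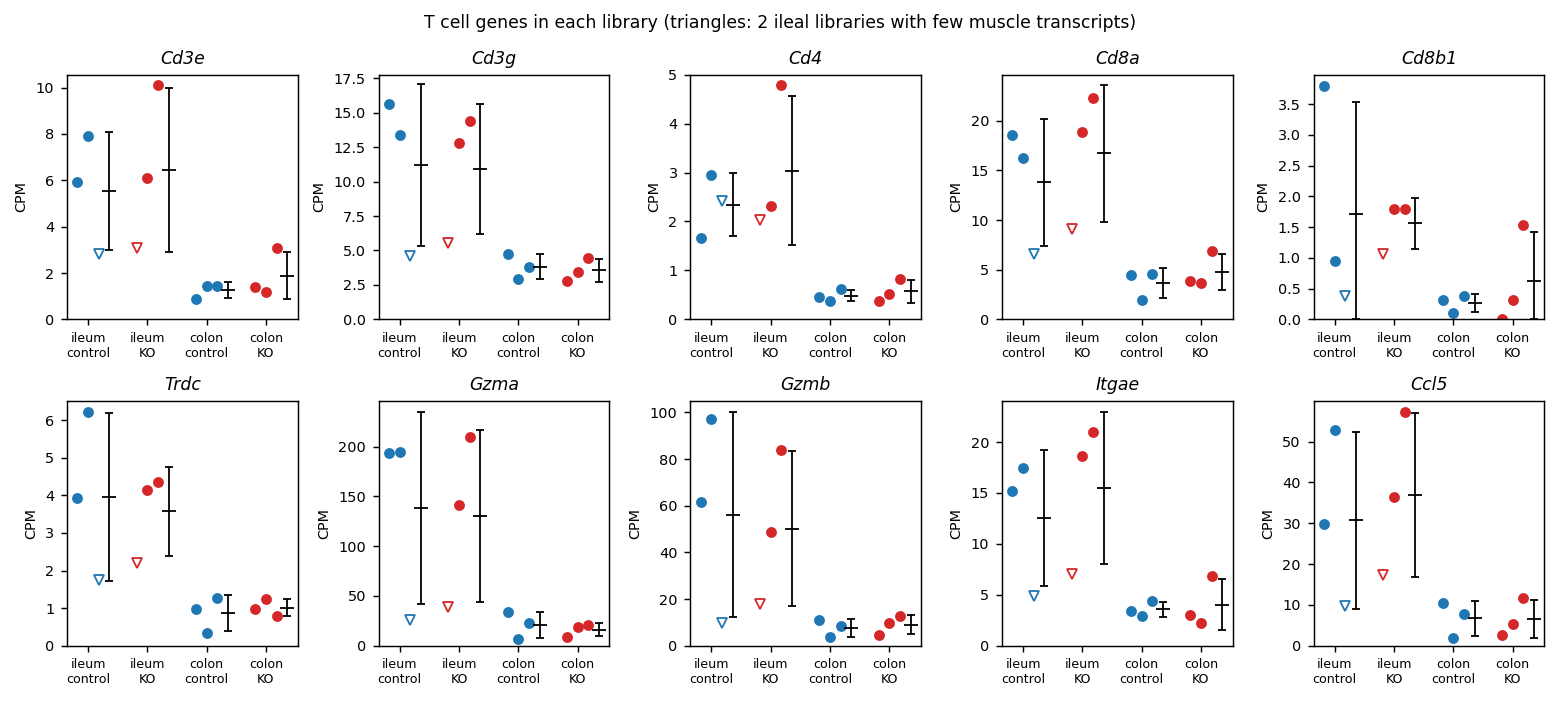
CPM of each T cell gene (linear axis from 0) in every library of the 4 groups, with control in blue and KO in red, replicates 1 to 3 from left to right, and the black mark and bar giving mean and SD (bars are cut off at 0). All 6 ileal libraries lie above all 6 colonic ones for 2 genes (Cd4 and Trdc), the open triangles (ileum control replicate 3 and ileum KO replicate 1) are the lowest of the ileal libraries for 8 genes, all but Cd4 and Cd8b1, and the genotypes overlap within each tissue for all 10 genes.

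T cell transcripts were lower in colon than in ileum. In control mice 9 of the 10 genes were called lower in colon at an adjusted p under 0.1 in edgeR's quasi-likelihood test (Benjamini-Hochberg over 16558 genes), where 19.6% of all genes tested were called lower and 35.9% in either direction. In KO mice 9 of 10 were called lower, where 20.0% of all genes were. The median log2 fold change of the 10 genes was -2.20 in control mice and -1.89 in KO mice, against 0.02 and 0.01 over all genes. In bulk mucosa, fewer T cells and less RNA per T cell cannot be told apart. These comparisons rest on the control and KO libraries separately, so each is given with its own values.

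The CD3 genes were the first of these. Cd3e was at 5.92, 7.89 and 2.80 CPM in ileum control replicates 1 to 3, 3.10, 6.10 and 10.1 in ileum KO, 0.870, 1.44 and 1.46 in colon control, and 1.41, 1.19 and 3.07 in colon KO. Every ileal library was above every colonic library of its genotype, and over both genotypes 1 ileal library, control replicate 3, lay below the highest colonic one. The log2 fold change of Cd3e in colon was -2.13 (SE 0.54, edgeR adjusted p = 0.0123) in control mice and -1.76 (SE 0.52, adjusted p = 0.0268) in KO mice. Its gene overlaps Gm48719 on the other strand by 135 exonic bases, and without a stated strand setting the reads of the overlap cannot be told apart.

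Cd3g was at 15.6, 13.4 and 4.59 CPM in ileum control, 5.54, 12.8 and 14.4 in ileum KO, 4.71, 2.93 and 3.81 in colon control, and 2.78, 3.47 and 4.44 in colon KO. Ileum control replicate 3 lay just below colon control replicate 1, and the KO groups did not overlap. In colon Cd3g had a log2 fold change of -1.55 (SE 0.46, edgeR adjusted p = 0.0263) in control mice and -1.61 (SE 0.46, adjusted p = 0.0219) in KO mice.

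Among the coreceptors, Cd4, which marks helper and regulatory T cells and is also made by some macrophages, was separated between the tissues in all 12 libraries. It was at 1.66, 2.94 and 2.42 CPM in ileum control, 2.03, 2.31 and 4.78 in ileum KO, 0.461, 0.384 and 0.612 in colon control, and 0.377, 0.518 and 0.830 in colon KO. All 6 colonic libraries were below all 6 ileal ones, although colonic counts were only 8 to 20 a library. Cd4 had a log2 fold change of -2.26 (SE 0.46, edgeR adjusted p = 0.00337) in control mice and -2.38 (SE 0.45, adjusted p = 0.00216) in KO mice.

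Cd8a was at 18.6, 16.2 and 6.54 CPM in ileum control, 9.06, 18.9 and 22.3 in ileum KO, 4.51, 1.97 and 4.52 in colon control, and 3.82, 3.68 and 6.89 in colon KO. The tissues did not overlap within either genotype, and colon KO replicate 3 reached just past ileum control replicate 3. The log2 fold change was -1.91 (SE 0.48, edgeR adjusted p = 0.0123) in control mice and -1.80 (SE 0.48, adjusted p = 0.0154) in KO mice.

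Cd8b1 was the 1 gene not called in either genotype. Its rounded counts were 57, 17 and 9 in ileum control, 18, 46 and 38 in ileum KO, 6, 2 and 8 in colon control, and 0, 6 and 37 in colon KO, where a count of 0 allows up to 3. The values spread widely, with ileum control replicate 1 and colon KO replicate 3 high within their groups. The log2 fold change was -2.66 (95% interval -5.17 to -0.15, edgeR adjusted p = 0.107) in control mice and -1.31 (95% interval -3.59 to 0.97, adjusted p = 0.374) in KO mice. Without the ileal pair low in muscle genes, the value in control mice was -3.16 (adjusted p = 0.0337), and in KO mice without colon KO replicate 3 it was -3.32 (adjusted p = 0.0767). Other exclusions moved it toward 0. It was -1.32 in control mice without ileum control replicate 1, and -0.76 in KO mice without colon KO replicate 1.

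Trdc, the gamma-delta chain, was at 3.93, 6.22 and 1.74 CPM in ileum control, 2.21, 4.14 and 4.36 in ileum KO, 0.973, 0.336 and 1.27 in colon control, and 0.989, 1.24 and 0.789 in colon KO. As for Cd4, all 6 colonic libraries were below all 6 ileal ones, and 14.7% of all genes tested were separated in this direction. Its log2 fold change in colon was -2.19 (SE 0.55, edgeR adjusted p = 0.0117) in control mice and -1.83 (SE 0.54, adjusted p = 0.0260) in KO mice. Trdc overlaps Gm43434 and Trdv5 on the other strand by 303 exonic bases.

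The granzymes had the largest tissue differences among the genes called in control mice, and in KO mice Gzma, Ccl5 and Gzmb had. Gzma was at 193, 194 and 26.2 CPM in ileum control, 38.6, 141 and 210 in ileum KO, 33.6, 7.15 and 22.4 in colon control, and 9.05, 18.8 and 20.8 in colon KO. Its 2 low ileal values were those of the libraries low in muscle genes, and ileum control replicate 3 was below colon control replicate 1. Gzma had a log2 fold change of -2.71 (SE 0.81, edgeR adjusted p = 0.0274) in control mice and -3.00 (SE 0.82, adjusted p = 0.0180) in KO mice.

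Gzmb was at 61.6, 97.0 and 9.60 CPM in ileum control, 17.8, 48.9 and 83.9 in ileum KO, 11.0, 3.55 and 8.38 in colon control, and 4.62, 9.74 and 12.7 in colon KO. The control groups overlapped through ileum control replicate 3 and the KO groups did not. The log2 fold change was -2.88 (SE 0.80, edgeR adjusted p = 0.0191) in control mice and -2.47 (SE 0.78, adjusted p = 0.0346) in KO mice. Natural killer cells also make granzymes. The summed level of 4 of their markers (Ncr1, Klrb1c, Eomes and Klra8) was 0.298 to 1.52 CPM over the libraries. Klra8 was at or under 3 counts throughout. In colon control this sum was 0.959 to 1.23 CPM, beside 0.870 to 1.46 for Cd3e. The part of natural killer cells in the granzyme values was not tested.

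Itgae, the CD103 gene, was at 15.2, 17.4 and 4.89 CPM in ileum control, 7.03, 18.6 and 21.0 in ileum KO, 3.38, 2.93 and 4.38 in colon control, and 2.97, 2.18 and 6.85 in colon KO. The tissues did not overlap within a genotype. Its value in colon was a log2 fold change of -1.81 (SE 0.56, edgeR adjusted p = 0.0324) in control mice and -1.95 (SE 0.56, adjusted p = 0.0222) in KO mice.

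Ccl5 was at 29.7, 52.8 and 9.65 CPM in ileum control, 17.2, 36.3 and 57.2 in ileum KO, 10.4, 1.97 and 7.67 in colon control, and 2.73, 5.34 and 11.7 in colon KO. The control groups overlapped, again through ileum control replicate 3. Ccl5 had a log2 fold change of -2.20 (SE 0.75, edgeR adjusted p = 0.0479) in control mice and -2.48 (SE 0.76, adjusted p = 0.0298) in KO mice.

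Counted over the genes, 3 colonic control libraries lay below 3 ileal control libraries for 6 of 10 (20.4% of all genes tested), and the KO libraries were separated in this way for 9 of 10 (24.9% of all genes). Without the ileal pair low in muscle genes, 10 of 10 were called in control mice and 9 of 10 in KO mice. Leaving out ileum control replicate 2 or colon control replicate 2 ended the calls of Itgae and Ccl5 in control mice (edgeR adjusted p = 0.102 and 0.173 without the first, 0.106 and 0.139 without the second), and leaving out colon control replicate 3 ended that of Ccl5 (adjusted p = 0.104). Without ileum KO replicate 2, the library with Car1, 9 of 10 were called in KO mice. In KO mice, Cd3e and Gzmb were not called without ileum KO replicate 3 (adjusted p = 0.114 and 0.121), Gzmb not without colon KO replicate 1 (0.113), and Cd3e and Ccl5 not without colon KO replicate 2 (0.104 and 0.103). The epithelial marker genes were also lower in colon, with a summed level of 20673 to 26710 CPM in ileum and 11486 to 13075 in colon, and macrophage and dendritic cell genes were at 39.6 to 73.8 CPM in ileum and 20.8 to 40.3 in colon. In control mice 5 of 6 epithelial, 3 of 6 macrophage and dendritic cell and 2 of 4 plasma cell genes were called lower in colon. The 1 of 6 B cell genes called lower was a share near the 19.6% of all genes. Median log2 fold changes in control and KO mice were -2.76 and -3.14 for B cell and -1.79 and -1.54 for plasma cell genes. The SE of B cell genes in control mice was 0.82 (Cd79b) to 2.23 (Pax5). The part of these marker genes in the T cell values was not tested.

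**Figure D2:**
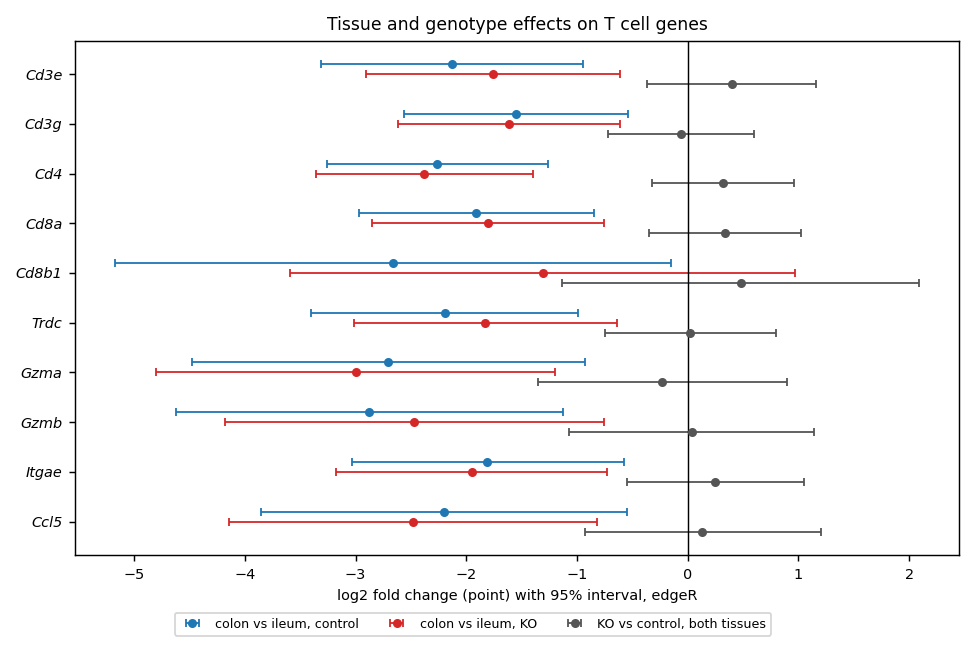
Log2 fold change (points) with 95% interval from edgeR for each T cell gene, for colon against ileum in control mice (blue), the same in KO mice (red), and KO against control over both tissues (grey). The tissue intervals lie below 0 except that of Cd8b1 in KO mice, and every genotype interval spans 0.

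Deletion of Slc39a8 in epithelium was not followed by a detectable change of these genes. At an adjusted p under 0.1, edgeR called 0 of the 10 genes and 0 of 16558 genes (0%) over both tissues, in ileum, in colon, and in the test of whether ileum and colon responded differently. At an unadjusted p under 0.05 there were 0 of the 10 in each, against 641, 252, 385 and 169 of all genes in that order. DESeq2 called 4, 2, 0 and 1 genes and limma-voom 1, 1, 0 and 0, with 0 of the 10 among them. The intervals were wide, so a change of moderate size in either direction was not detectable at this depth and number of mice. Slc39a8 itself was not called by edgeR in these comparisons, although its genotypes did not overlap in either tissue. The study, with DESeq2 and both tissues combined, called it lower. The lack of a call here therefore does not show that a gene was unchanged.

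Over both tissues the log2 fold changes in KO mice lay between -0.23 (Gzma, 95% interval -1.35 to 0.90) and 0.48 (Cd8b1, 95% interval -1.14 to 2.09). The median was 0.19, with 8 positive values and 2 negative. The narrowest limits were those of Cd3g at -0.06 (95% interval -0.72 to 0.60) and Cd4 at 0.32 (95% interval -0.32 to 0.96). Cd3e was at 0.40 (-0.37 to 1.16), Cd8a at 0.34 (-0.35 to 1.02), Itgae at 0.25 (-0.55 to 1.05), Ccl5 at 0.13 (-0.93 to 1.20), Gzmb at 0.04 (-1.07 to 1.14) and Trdc at 0.02 (-0.75 to 0.80).

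In ileum the values ran from -0.16 (Gzmb) to 0.37 (Cd4), with 5 of 10 positive, and the intervals reached from -2.30 to 2.10. In colon they ran from -0.38 (Gzma) to 1.25 (Cd8b1), with 7 of 10 positive, and the intervals reached from -2.07 to 3.78. The genotypes were not separated for any of the 10 genes in ileum or in colon, where 3.70% and 12.8% of all genes tested were. Among the 6 colonic libraries, KO replicate 3 was the highest for 7 of the 10 genes (18.6% of all genes) and control replicate 2 the lowest for 5 (14.6%). Comparisons between tissues in control mice and between genotypes share the control libraries.

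Within ileum the T cell genes followed the split between libraries low and rich in muscle genes. For 8 of the 10 genes, control replicate 3 and KO replicate 1 were below all other 4 ileal libraries, as were 27.2% of all genes tested. The exceptions were Cd4 and Cd8b1. The mean of the other 4 libraries was 5.70 times that of the pair for Gzma, 5.32 times for Gzmb, 3.28 times for Ccl5, 3.03 times for Itgae, 2.78 times for Cd3g, 2.54 times for Cd3e, 2.44 times for Cd8a and 2.36 times for Trdc. For Cd4 it was 1.31 times, with 2.42 and 2.03 CPM in the pair inside the range of 1.66 to 4.78 in the others.

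Some genes of lymphoid tissue ran the other way. Cxcr5, the receptor that brings B cells and follicular helper T cells into follicles, was at 3.36 and 2.50 CPM in the pair against 0.234 to 0.399 in the others, and Cr2, a complement receptor of B cells, at 5.86 and 6.32 against 0.0666 to 0.142. Cxcr5 and Cr2 had the largest ratios of pair to others in their lists. Among the naive and lymphoid-tissue genes, Tcf7 and Bcl6 were at 1.60 times the others in the pair. Il7r was lower in the pair, at 0.65 times. Plasma cell genes were lower in the pair, with summed CPM of 111 and 97.1 against 444 to 824. The pair was defined from these data by muscle genes, and it is no group of the study.

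Within the pair, the KO library was 1.47 times the control library for Gzma and 1.11 times for Cd3e, and among the other 4 the ratio of means was 0.91 and 1.18. For Cd4 these ratios were 0.84 and 1.54, and for Trdc 1.27 and 0.84. With 1 library a genotype in the pair these are values without a test.

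**Figure D3:**
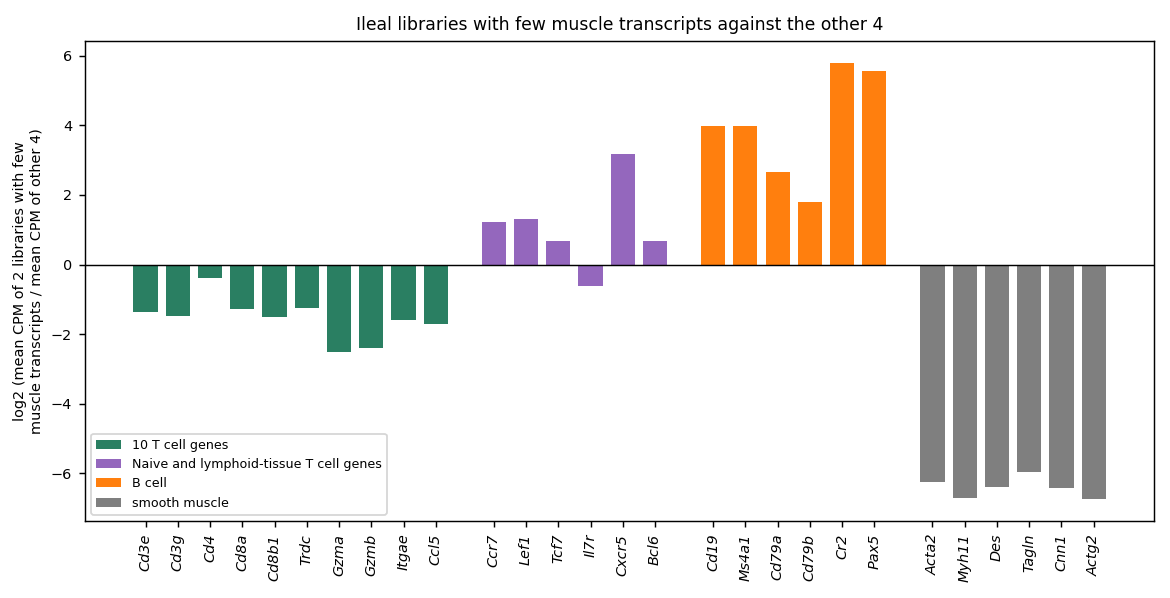
Log2 ratio of the mean CPM of ileum control replicate 3 and ileum KO replicate 1, which hold few muscle transcripts, to the mean of the other 4 ileal libraries, for the 10 T cell genes (green), naive and lymphoid-tissue genes (purple), B cell genes (orange) and smooth muscle genes (grey), 1 bar a gene. All 10 T cell bars lie below 0, least for Cd4, while the bars of B cell genes lie above 0. Among the purple bars, that of Il7r lies below 0 and the others shown lie above 0.

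Ratios between genes of 1 library ask whether the make-up of the T cell signal differed. They were taken on counts plus 0.5 and do not depend on library size. The ratio of Gzma to Cd3e had a geometric mean of 18.7 in ileum and 11.1 in colon, a log2 difference of -0.76 (exact two-sided permutation test within genotype, p = 0.195, adjusted p = 0.680 over 8 ratios). For Gzmb to Cd3e the difference was -0.53 (exact permutation p = 0.285, adjusted p = 0.680), and for Cd4 to Cd3e it was -0.38 (exact permutation p = 0.255, adjusted p = 0.680). Cd8a to Cd3e was at 2.58 in ileum and 2.69 in colon, a difference of 0.06 (exact permutation p = 0.860). The ratio of Cd8a to Cd8b1 was 4.88 to 16.7 in ileum and 4.44 to 16.6 in the colonic libraries other than KO replicate 1, where no Cd8b1 was counted. None of 8 ratios passed an adjusted p of 0.1 for tissue, nor for genotype (adjusted p = 0.945 for each), where the smallest p that the 400 arrangements allow is 0.005.

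The ileal pair lay outside the range of the other 4 ileal libraries in 3 of the 8 ratios. Gzma to Cd3e was 9.27 and 12.3 in the pair against 20.6 to 32.4, and Gzmb to Cd3e 3.41 and 5.69 against 7.99 to 12.3. Cd4 to Cd3e was 0.865 and 0.657 in the pair against 0.285 to 0.473. In these values the pair had fewer granzyme counts and more Cd4 counts per Cd3e count. The pair was picked from these data and the difference was not tested. These 3 ratios share Cd3e, so they are not independent.

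**Figure D4:**
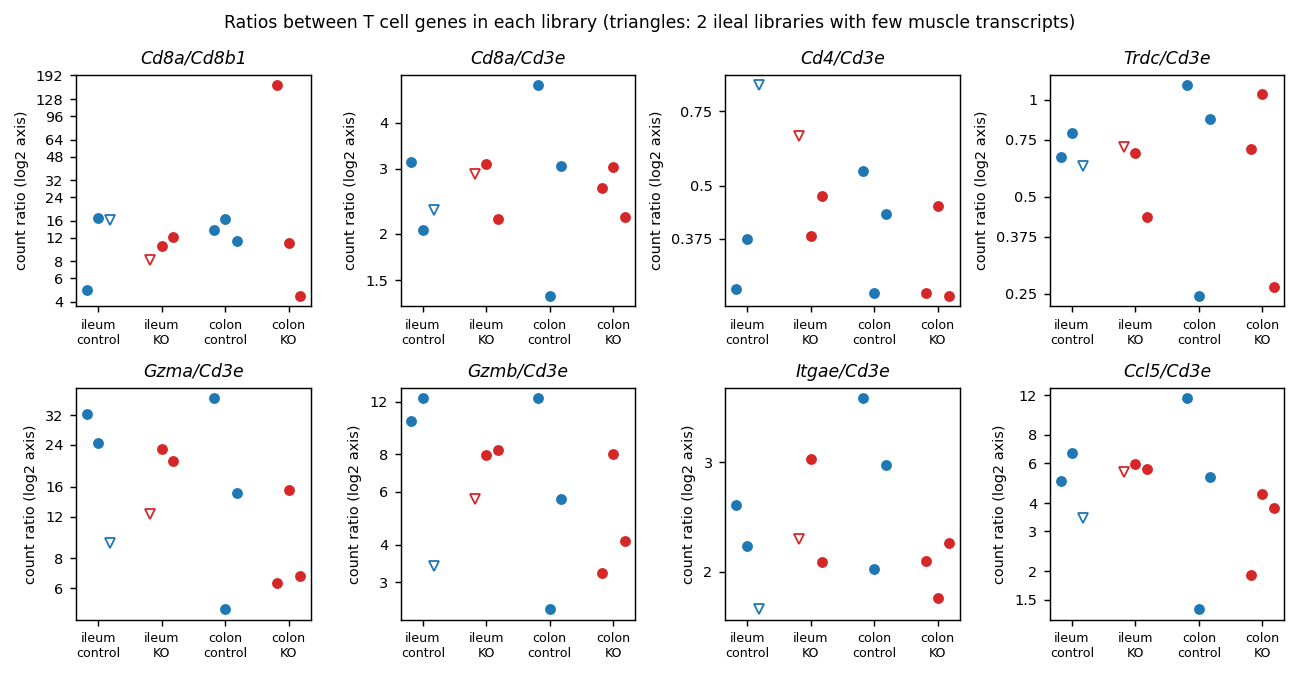
Count ratios between T cell genes (log2 axis, counts plus 0.5) in each library of the 4 groups, control in blue and KO in red. The 6 ileal and the 6 colonic libraries overlap in every panel, and the open triangles (ileum control replicate 3 and ileum KO replicate 1) are lowest of the ileal libraries for Gzma/Cd3e and Gzmb/Cd3e and highest for Cd4/Cd3e.

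The genes most like Cd3e were sought over the 12 libraries, with log2 CPM centred within each tissue. Selplg (r = 0.96) and Spn (r = 0.95), which encode the leukocyte surface proteins PSGL-1 and CD43, came first, followed by Cyth4, Entpd1, Apoe and Igkv12-46 (r = 0.93) and Vsir and Itga9 (r = 0.92). Among the T cell genes Itgae was nearest at r = 0.88, with 54 genes above it, and the other 8 were at 0.44 (Trdc) to 0.74 (Cd8a), with 1119 (Cd8a) to 4097 (Trdc) of 16557 genes above them. Over the 45 pairs of the 10 genes r ran from 0.33 to 0.96 with a median of 0.72. The r of all genes with Cd3e alone, which is another kind of set, had a median of 0.01. The libraries share their groups, and r is a description over 12 points.

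The likeness of most T cell genes to Cd3e was lower without the ileal pair, except that of Cd4. Over the other 10 libraries, centred again, Selplg (r = 0.96) was still nearest to Cd3e and Spn was at 0.92, and the other 6 of these genes were at 0.84 to 0.89. Among the T cell genes Itgae was at 0.75, Cd4 at 0.72, Cd8a at 0.44, Cd8b1 at 0.38, Ccl5 at 0.30, Gzmb at 0.28, Cd3g at 0.07, Gzma at -0.07 and Trdc at -0.11. The median over the 45 pairs was then 0.59, in a range of -0.11 to 0.93, and the median of all genes with Cd3e alone was 0.06.

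Lists of other T cell genes, chosen with earlier results of these data known, are read against the 19.6% of all genes called lower in control mice and the 20.0% in KO mice. Of the T cell receptor list, 6 of 8 genes tested were called lower in control mice (median log2 fold change -1.62) and 5 of 8 in KO mice. Trac, the alpha chain constant region, was at 2.54 ± 0.747 CPM in ileum and 0.353 ± 0.189 in colon (SD, n = 3), a log2 fold change of -2.82 (edgeR adjusted p = 0.00942) in control mice and -1.46 (adjusted p = 0.0986) in KO mice. Tcrg-C2, a gamma chain constant region whose reads may be shared with its near copies, was at -1.75 (adjusted p = 0.0244).

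Of 11 surface and signalling genes 7 were lower in control mice and 5 in KO mice, with a median of -1.25 in control mice. Cd5 (log2 fold change -2.31, edgeR adjusted p = 0.0334) and Cd6 (-2.22, adjusted p = 0.0781), scavenger receptor family members of T cells, fell most among those called. Their means in colon control were only 0.191 and 0.409 CPM, so these folds rest on few counts. In KO mice Cd6 was not called (-0.89, edgeR adjusted p = 0.433). Thy1 was not called, at 0.70 (adjusted p = 0.266).

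Of 11 cytotoxic and NK receptor genes 4 were lower in control mice and 2 in KO mice, the latter a share near that of all genes (20.0%). Prf1, which encodes perforin, the pore protein that lets granzymes enter target cells, was at -2.47 (edgeR adjusted p = 0.0739) and Nkg7, a protein of cytotoxic granules, at -1.98 (adjusted p = 0.0450), which was not called in KO mice (-1.38, adjusted p = 0.131). Prf1 was at 0.933 ± 0.757 CPM in ileum control and 0.160 ± 0.106 in colon control, so its fold rests on few counts. Of 11 homing and residency genes 4 were lower in control mice and 3 in KO mice, not far above the share of all genes. Ccr9, the chemokine receptor that guides T cells to the small intestine, was at 4.83 ± 1.78 CPM in ileum and 0.795 ± 0.113 in colon, a log2 fold change of -2.59 (edgeR adjusted p = 0.00755), and Cxcr6, a receptor of tissue-resident T cells, was at -1.84 (adjusted p = 0.0522) and not called in KO mice (-0.75, adjusted p = 0.393).

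Of the 15 helper and regulatory genes 6 passed the filter. In control mice 3 were called lower and 1 higher, with a median of -1.58, where 16.2% of all genes were called higher. In KO mice 1 was lower and 1 higher, with a median of -0.78, where 20.0% of all genes were lower and 17.1% higher. Ctla4, an inhibitory receptor, was at -3.02 (edgeR adjusted p = 0.0373) in control mice and not called in KO mice (-1.28, adjusted p = 0.299). Its level was 1.11 ± 1.05 CPM in ileum control and 0.132 ± 0.0795 in colon control, so its fold rests on few counts. Ifng, the interferon gamma gene, was called lower (adjusted p = 0.0870) at 0.669 ± 0.573 CPM in ileum and 0.0341 ± 0.0591 in colon, too few counts for a fold, and it was not called in KO mice (adjusted p = 0.571). Ikzf2, the Helios gene, was higher in colon at 2.09 (edgeR adjusted p = 9.8e-04) in control mice and was also called higher in KO mice (adjusted p = 0.0445), with means of 6.30 CPM in ileum and 12.7 in colon. In colon control its mean was 17.8 CPM, above those of Cd3e (1.26) and Cd4 (0.486), and which cells made it was not tested. In the test of whether the tissue difference differed between genotypes, edgeR called 0 of all genes. Of 6 naive and lymphoid-tissue genes 3 were lower in control mice and 2 in KO mice. Tcf7, a factor of naive and memory T cells, was at -1.24 in control mice (edgeR adjusted p = 0.0523).

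Of 12 genes through which epithelial cells meet these lymphocytes, 5 were lower in colon and 2 higher in control mice, and 6 lower and 1 higher in KO mice. Over all genes 16.2% were called higher in control mice and 17.1% in KO mice, so the genes higher were near or under that share. Ccl25, the epithelial chemokine that binds Ccr9, was at 726 ± 300 CPM in ileum and 12.4 ± 1.15 in colon, a log2 fold change of -5.88 (edgeR adjusted p = 5.3e-07). Btnl2, a butyrophilin-like gene, was at -2.12 (adjusted p = 8.8e-05). Il15, the cytokine that sustains CD8 T cells in the epithelium, was higher in colon at 1.09 (adjusted p = 0.0279), as was Cd1d1, a lipid-presenting molecule, at 0.96 (adjusted p = 0.0593), which was not called in KO mice (0.66, adjusted p = 0.177). In the genotype comparisons edgeR called 0 genes of these 7 lists, and at an unadjusted p under 0.05 there were 1 receptor gene in colon and 1 helper or regulatory gene in the difference between tissues.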

How the data were processed

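The study made poly(A)-primed libraries (oligo-dT, NEBNext Ultra II) of ileal and colonic mucosa, 12 libraries in 4 groups of 3 mice, grouped by the labels. The authors deposited 1 table of expected counts per gene, not normalized. The submitters' processing notes name STAR and mm10, and the study's reporting summary names uniquely mapped reads, removal of duplicates and FeatureCounts. Which program estimated the expected counts, and so how it split reads between near copies, is not given in those sources. Of 53807 lines, 92 spike-in lines were left out, and 53620 of 53715 genes were paired with a symbol. All value columns had a library.

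Expected counts were rounded. edgeR 4.0.16 in R 4.3.3 kept 16558 genes (filterByExpr), with TMM factors, glmQLFit and glmQLFTest on a model of the 4 groups, or of genotype with tissue as a term over both tissues, and Benjamini-Hochberg adjustment over all genes with a threshold of 0.1. log2 CPM for correlations used a prior count of 2. Ratios between genes used counts plus 0.5 and exact two-sided permutation within strata. Libraries were taken as independent, and if mice gave both tissues this would not hold. Alternatives were DESeq2 1.42.0, limma-voom (limma 3.58.1), other scalings and filters, a replicate block, the threshold, fits of fewer libraries, and each library left out. Steps were tested on simulated data. The 10 genes and the lists were chosen with earlier results of these data known. All 10 genes are named. Of each list, the 2 largest rises and the 2 largest falls among genes called in control mice are named, and the 8 genes with the highest r with Cd3e. The values of 1 list gene are not reported here. Thy1, Cr2, Cxcr5, Il7r, Bcl6 and the marker genes were named after their values were seen. Coordinates are mm10 and upstream sequences RefSeq GRCm38.p6. Precision is set by depth, 16749138 to 27903083 expected counts a library, and by 3 mice a group. Figures were drawn with matplotlib 3.10.9.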

Additional observations from a re-analysis of the deposited data

How the results depend on the processing

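The count of the 10 genes called between tissues stayed between 7 and 10 in each genotype under every alternative, among them DESeq2 (10 in control mice, 9 in KO mice), limma-voom (8 and 9), no filter on low counts (10 and 9) and an adjusted p under 0.05 (9 and 9). Over these alternatives 441 of 459 single values kept their direction and their side of the threshold, 11 were no longer called, 7 became called and 0 changed direction. In control mice limma-voom no longer called Itgae (adjusted p = 0.107). Scaling by library size alone moved the median of all genes from 0.02 to 0.24 in control mice and from 0.01 to 0.29 in KO mice, and the share of calls that were higher in colon from 45.3% to 66.4% and from 46.1% to 70.8%. With upper-quartile factors the share was 55.2% and 58.3%. The 10 genes remained lower in colon under all of these. In control mice, all 3 libraries of both groups alone in the fit gave 9 calls. Cd8b1 had counts of 0 to 57, which limits the precision of its values. An alternative chosen after seeing the data, r with Cd3e and levels per kb without the ileal pair, turned r for Trdc (-0.11) and Gzma (-0.07).

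In genotype comparisons 0 of the 10 genes were called under every alternative, and 107 of 899 single values changed sign. Over both tissues these were, apart from libraries left out in turn and the replicate block, Cd3g at 0.09 with limma-voom and 0.04 with library size only, and Trdc at -0.02 without the ileal pair. In ileum limma-voom gave Cd3g 0.18, Cd8b1 0.64, Trdc 0.08, Gzma 0.08 and Gzmb 0.19, and library size only gave Cd3g 0.05, Cd8b1 0.02 and Gzma 0.01. In colon limma-voom gave Cd8b1 -0.06 and Ccl5 0.09, library size only Cd3g 0.03 and Ccl5 0.14, upper-quartile factors Ccl5 0.01, no filter Ccl5 0.03, and the fit without the ileal pair Ccl5 0.01. The difference between tissues was -0.70 for Cd8b1 with limma-voom and 0.03 for Cd3g without the pair. Ratios without the pair were -0.03 for Itgae/Cd3e (tissue), -0.02 for Cd8a/Cd3e and 0.03 for Cd4/Cd3e (genotype).

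When single libraries were left out, the log2 fold changes that changed sign ran over both tissues from -0.24 to 0.08 for Cd3g, -0.30 to 1.25 for Cd8b1, -0.15 to 0.28 for Trdc, -0.48 to 0.01 for Gzma, -0.20 to 0.37 for Gzmb, 0.00 to 0.41 for Itgae, -0.14 to 0.41 for Ccl5. In ileum they ran from -0.26 to 0.57 for Cd3e, -0.41 to 0.28 for Cd3g, -0.11 to 0.59 for Cd4, -0.06 to 0.58 for Cd8a, -0.59 to 1.25 for Cd8b1, -0.51 to 0.35 for Trdc, -0.61 to 0.35 for Gzma, -0.74 to 0.50 for Gzmb, -0.07 to 0.67 for Itgae, -0.20 to 0.91 for Ccl5. In colon they ran from -0.28 to 0.08 for Cd3g, -0.11 to 0.46 for Cd4, -0.75 to 1.80 for Cd8b1, -0.16 to 0.63 for Trdc, -0.79 to 0.14 for Gzma, -0.10 to 0.60 for Gzmb, -0.45 to 0.46 for Itgae, -0.72 to 0.46 for Ccl5. The difference between tissues ran from -0.15 to 0.85 for Cd3e, -0.38 to 0.33 for Cd3g, -0.47 to 0.36 for Cd4, -0.23 to 0.46 for Cd8a, -0.64 to 1.90 for Cd8b1, -0.13 to 0.78 for Trdc, -0.73 to 0.23 for Gzma, -0.26 to 0.99 for Gzmb, -0.76 to 0.26 for Itgae, -0.98 to 0.19 for Ccl5. Of the ratios, the tissue difference ran from -0.11 to 1.19 for Cd8a/Cd8b1, -0.16 to 0.32 for Cd8a/Cd3e, -0.31 to 0.24 for Trdc/Cd3e, -0.03 to 0.20 for Itgae/Cd3e, and the genotype difference from -0.54 to 0.76 for Cd8a/Cd8b1, -0.22 to 0.25 for Cd8a/Cd3e, -0.26 to 0.14 for Cd4/Cd3e, -0.49 to 0.13 for Trdc/Cd3e, -0.44 to 0.14 for Gzmb/Cd3e, -0.53 to 0.24 for Ccl5/Cd3e. The cause was not tested.

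Replicate numbers were shared by the groups. Deviations of same-numbered libraries from their group means had correlations of -0.0798 to 0.251 between tissues, with 3 of 6 pairs over 0.1. Those between genotypes were -0.694 to 0.404, and as these libraries come from different mice they do not bear on pairing. With 3 libraries a group, such correlations cannot decide whether the tissues were paired. The numbers were not treated as pairs, and whether a mouse gave both tissues is not known. With the replicate number as a block, 9 of the 10 genes were called in each genotype between tissues and 5333 of all genes in control mice, against 5940 without it, and over both tissues the genotype value was -0.07 for Gzmb and -0.02 for Ccl5. The block of this edgeR fit joined control and KO libraries of the same number, so it did not pair the tissues by mouse.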
